A study of Homo sapiens with 8 samples.

Results

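Transcripts of 6 cytokine genes were followed in a leukaemia cell line and its drug-resistant derivative, with and without a bromodomain inhibitor. The genes are IL1B, CSF1, CXCL8, IL18, TGFB1 and MIF. They were found by their symbols among 19718 coding genes, and all 6 were present. They were selected on their measured FPKM in these same samples (sequenced fragments for each kilobase of a transcript, scaled to library size), with their response to the drug known. Their changes under the drug, and the difference in that response between the lines, which is built from the same changes, are therefore given as a description with no test. The differences between the lines within a condition were tested. They come from the same FPKM, so their p-values are no independent evidence for genes picked on those values. With a filter of 1 FPKM in at least 2 of 8 libraries, 5 of the 6 were kept. CXCL8 reached 1 FPKM in only 1 library and was not tested.

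RNA was sequenced from HEL92.1.7, a human erythroleukaemia line that the labels class as secondary AML, and from HEL OTX P/R, a persister-resistant line derived from it. The 4 groups were P/R cells given OTX015, untreated P/R cells, parental cells given OTX015 and untreated parental cells, with 2 libraries in each. OTX015 (birabresib) is a small molecule that occupies the bromodomains of the BET proteins, and it was given at 1000 nM for 8 hours. Both lines were grown in RPMI1640 medium with fetal bovine serum. The sources used here do not say whether the derivative is a single clone. The design text describes the 2 libraries of a group as biological replicates, with cells treated separately. The labels name the cells leukaemia blasts, and 9 of 10 erythroid and 7 of 8 megakaryocyte markers averaged at least 1 FPKM. Of 10 monocyte and macrophage markers only LYZ did so, and the list summed to between 9.93 and 13.5 FPKM in the 8 libraries, with FCN1, S100A8 and MARCO at 0. In bulk RNA, fewer cells that express a gene and less RNA per cell cannot be told apart.

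Cytokines are secreted proteins through which blood and immune cells signal to each other. IL1B and IL18 encode interleukins 1β and 18, which are made as inactive precursors and cut by caspase-1 in the inflammasome. CSF1 encodes the growth factor of monocytes and macrophages, and CXCL8 encodes interleukin 8, a chemokine that draws neutrophils. TGFB1 encodes transforming growth factor β1, which is secreted in a latent form, held in reserve by binding proteins and stored in platelets. MIF encodes macrophage migration inhibitory factor, which signals through the receptor protein CD74. BET proteins read acetylated histones at enhancers and promoters, and their inhibitors are known to lower transcription of inflammatory genes in macrophages.

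RefSeq promoter sequence was at hand for IL1B, CXCL8, TGFB1 and MIF. The 250 bases before the start site are shown for IL1B and CXCL8, which were lower under OTX015 in both lines, and for TGFB1, which was higher. Positions are on GRCh38.p14: IL1B chr2:112836780-112837029 on the minus strand, CXCL8 chr4:73740319-73740568 on the plus strand and TGFB1 chr19:41353923-41354172 on the minus strand. Capitals mark matches, on either strand, to 6 motifs: the TATA box TATAAA, the TATA-like ATAAAA that can overlap it, the AP-1 motif TGACTCA, the NF-kB motif GGAATTTCC, the GC box GGGCGG and the E-box CACGTG.
IL1B: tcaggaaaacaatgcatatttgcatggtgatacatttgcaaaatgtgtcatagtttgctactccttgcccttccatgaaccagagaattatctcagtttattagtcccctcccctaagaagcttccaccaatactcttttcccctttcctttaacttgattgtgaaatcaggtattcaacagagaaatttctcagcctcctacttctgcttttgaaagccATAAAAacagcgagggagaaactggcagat
CXCL8: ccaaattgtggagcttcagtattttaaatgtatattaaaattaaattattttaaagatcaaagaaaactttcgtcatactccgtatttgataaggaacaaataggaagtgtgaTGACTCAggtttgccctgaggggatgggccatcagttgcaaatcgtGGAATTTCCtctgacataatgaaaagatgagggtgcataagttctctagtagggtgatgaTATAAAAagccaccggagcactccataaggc
TGFB1: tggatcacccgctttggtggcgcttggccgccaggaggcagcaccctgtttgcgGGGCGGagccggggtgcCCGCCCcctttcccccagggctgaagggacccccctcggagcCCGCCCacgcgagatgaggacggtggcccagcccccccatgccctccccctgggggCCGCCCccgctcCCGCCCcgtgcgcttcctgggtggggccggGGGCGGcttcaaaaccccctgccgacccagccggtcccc

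The IL1B window held 1 match, an ATAAAA that began 30 bases before the start site. CXCL8 held the TATA box from 31 bases before the start, overlapped by the TATA-like motif, the NF-kB motif from 91 bases and the AP-1 motif from 137 bases before it. TGFB1 held 6 GC boxes. MIF, which was also lower under OTX015 in both lines and whose sequence is not printed, held 3. Among 35114 promoter windows of this length, the TATA-like motif was found in 14.8%, the TATA box in 10.7%, the AP-1 motif in 4.2%, the NF-kB motif in 0.413%, the GC box in 42.6% and the E-box in 6.35%. G and C made up 37.6% of the CXCL8 window, 76.8% of that of TGFB1 and 70.4% of that of MIF, against a median of 58.0% over all windows, and IL1B lay between CXCL8 and that median. Only these exact letters were sought, so other forms of a site would not be marked. A match describes the letters only, and no binding was measured here.

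IL1B was the member that changed most under OTX015. P/R libraries under OTX015 read 3.18 and 0.837 FPKM, against 26.6 and 30.6 FPKM in untreated P/R libraries. Parental libraries under OTX015 read 1.09 and 1.1 FPKM, against 26.7 and 24.8 FPKM in untreated parental libraries. All treated libraries lay below all untreated ones in both lines. The treated mean was 0.0702 of the untreated mean in P/R cells and 0.0424 of it in parental cells. A log2(FPKM + 1) scale makes the change of a low gene look smaller. On it, the differences were -3.41 ± 0.29 in P/R cells and -3.68 ± 0.29 in parental cells (SE, n = 2 per group). The SE, here and below, comes from a spread that limma estimated over all 4 groups, so it is the same in both lines. With a pseudocount of 5 the differences were -2.28 in P/R cells and -2.33 in parental cells. On the log2(FPKM + 1) scale the value in P/R cells lay between -4.01 and -2.82 when a single library was left out. Ordered by this difference among 11255 tested genes, IL1B had the largest fall in parental cells and stood in place 2 in P/R cells. Untreated, IL1B exceeded 82.0% of all coding genes in P/R cells and 80.5% in parental cells.

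The 2 lines did not differ in IL1B by the test. Untreated, P/R cells averaged 28.6 ± 2.8 FPKM and parental cells 25.7 ± 1.38 FPKM (SD, n = 2). The log2 difference was 0.14, with a 95% interval from -0.51 to 0.80 (limma adjusted p = 0.769). Under OTX015, P/R cells averaged 2.01 ± 1.65 FPKM and parental cells 1.09 ± 0.008 FPKM, a log2 difference of 0.41 (interval -0.25 to 1.06, adjusted p = 0.357). The treated P/R replicates were far apart, 1 above and 1 below both parental libraries. Without P/R OTX015 replicate 2 the difference was 1.00 and passed (adjusted p = 0.000951), and without P/R OTX015 replicate 1 it was -0.19 and did not pass (adjusted p = 0.326), so this comparison rests on a single library. The response in P/R cells minus that in parental cells was 0.26 ± 0.41 (SE). The intervals rest on the spread shared by all 4 groups, to which the distant treated P/R replicates contribute. With only the groups compared, the untreated limma adjusted p was 0.274. These intervals are wide, and a p above the threshold does not show that the lines are alike.

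CSF1 also fell under OTX015, and its untreated level set the lines apart. P/R libraries under OTX015 read 2.5 and 2.08 FPKM, against 8.28 and 8.29 FPKM in untreated P/R libraries. Parental libraries under OTX015 read 1.61 and 1.92 FPKM, against 15.9 and 15.1 FPKM in untreated parental libraries. The groups did not overlap in either line. The treated mean was 0.276 of the untreated mean in P/R cells and 0.114 of it in parental cells. The log2 differences were -1.50 ± 0.10 in P/R cells and -2.58 ± 0.10 in parental cells (SE, n = 2 per group). With a pseudocount of 5 they were -0.87 in P/R cells and -1.60 in parental cells. In the order of falls CSF1 stood in place 43 in P/R cells and in place 6 in parental cells.

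Untreated P/R cells had 8.28 ± 0.00599 FPKM of CSF1 and untreated parental cells 15.5 ± 0.599 FPKM (SD, n = 2). The log2 difference was -0.83 (interval -1.06 to -0.60, limma adjusted p = 0.000436), and the lower level in P/R cells passed in all 16 alternative settings that were run. Under OTX015 the means were 2.29 ± 0.295 FPKM in P/R cells and 1.77 ± 0.217 FPKM in parental cells. That difference of 0.25 did not pass (interval 0.02 to 0.48, adjusted p = 0.116), although the libraries of the lines did not overlap. Lack of overlap between the lines was common, at 60.8% of tested genes under OTX015 and 62.3% untreated.

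The fall of CSF1 was smaller in P/R cells. The response in P/R cells minus that in parental cells was 1.08 ± 0.15 on the log2 scale (SE), and it stayed between 0.99 and 1.17 when a single library was left out. It is given without a p, since the responses it is made of were known when the gene was picked. Over all genes, limma called 9 of 11255 in this comparison, or 0.0800%, with 0.0622% in the positive and 0.0178% in the negative direction. The treated mean was 0.522 FPKM higher in P/R cells, and the untreated mean differed from that of parental cells by -7.22 FPKM.

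CXCL8 was close to the lower end of detection. P/R libraries under OTX015 read 0.244 and 0.0777 FPKM, against 0.786 and 1.3 FPKM in untreated P/R libraries. Parental libraries under OTX015 read 0.0523 and 0.0762 FPKM, against 0.185 and 0.585 FPKM in untreated parental libraries. Treated libraries lay below untreated ones in both lines, and P/R libraries lay above parental ones in both conditions. The treated mean was 0.154 of the untreated mean in P/R cells and 0.167 of it in parental cells. An exact permutation test of 2 libraries against 2 cannot give a two-sided p below 0.333. Since read depth is not known, the counting error of values this low is not known either.

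IL18 differed by line more than by drug. P/R libraries under OTX015 read 8.59 and 10.1 FPKM, and untreated P/R libraries 8.64 and 7.06 FPKM, so the groups overlapped. Parental libraries under OTX015 read 4.32 and 3.75 FPKM, against 4.61 and 5.49 FPKM in untreated parental libraries, with no overlap. The log2 differences under OTX015 were 0.23 ± 0.13 in P/R cells and -0.26 ± 0.13 in parental cells (SE, n = 2 per group). All 4 P/R libraries lay above all 4 parental libraries.

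Under OTX015, IL18 averaged 9.33 ± 1.05 FPKM in P/R cells and 4.03 ± 0.403 FPKM in parental cells (SD, n = 2). This was 2.31 times the parental level, a log2 difference of 1.04 (interval 0.75 to 1.32, limma adjusted p = 0.00037). Untreated, the means were 7.85 ± 1.12 FPKM in P/R cells and 5.05 ± 0.622 FPKM in parental cells, a log2 difference of 0.55 (interval 0.26 to 0.83, adjusted p = 0.0134). The untreated call was lost without parental untreated replicate 1 (adjusted p = 0.0908), without P/R untreated replicate 1 (0.104) and without the filter on low values (0.0931). The response in P/R cells minus that in parental cells was 0.49 ± 0.18 (SE).

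TGFB1 was the most abundant of the 6 and the 1 member that was higher under OTX015 in both lines. P/R libraries under OTX015 read 957 and 818 FPKM, against 458 and 450 FPKM in untreated P/R libraries. Parental libraries under OTX015 read 818 and 967 FPKM, against 384 and 375 FPKM in untreated parental libraries. Every treated library exceeded every untreated one. The treated mean was 1.95 times the untreated mean in P/R cells and 2.35 times it in parental cells, with log2 differences of 0.96 ± 0.08 in P/R cells and 1.23 ± 0.08 in parental cells (SE, n = 2 per group). The transcript exceeded 99.4% of coding genes in both treated groups, 99.0% in untreated P/R cells and 98.8% in untreated parental cells. A library of each line had the same TGFB1 value under OTX015, because quantile normalization gives genes of equal rank equal values.

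In TGFB1 the lines did not pass the test in either condition, but untreated they came close. Under OTX015 the means were 887 ± 98.3 FPKM in P/R cells and 892 ± 106 FPKM in parental cells (SD, n = 2), a log2 difference of -0.01 (interval -0.20 to 0.18, limma adjusted p = 0.963). Untreated, they were 454 ± 5.24 FPKM in P/R cells and 380 ± 6.34 FPKM in parental cells, a log2 difference of 0.26 (interval 0.07 to 0.45, adjusted p = 0.0543). That interval leaves out 0, and the untreated difference passed in 6 of 16 alternatives. The response in P/R cells minus that in parental cells was -0.26 ± 0.12 (SE). In GENCODE release 29 the span of TGFB1 overlaps HNRNPUL1, CCDC97, TMEM91 and AC011462.1 on the opposite strand, and the sources used here do not say whether reads were counted by strand. Of these, HNRNPUL1 was the most abundant, at 151 FPKM in P/R cells under OTX015, 176 FPKM in untreated P/R cells, 154 FPKM in parental cells under OTX015 and 175 FPKM in untreated parental cells.

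MIF was lower under OTX015 by a smaller margin and higher in P/R cells throughout. P/R libraries under OTX015 read 42.7 and 44.2 FPKM, against 51.1 and 49 FPKM in untreated P/R libraries. Parental libraries under OTX015 read 28.9 and 29.7 FPKM, against 41.3 and 39.5 FPKM in untreated parental libraries. No treated library overlapped an untreated one of its line. The treated mean was 0.867 of the untreated mean in P/R cells and 0.725 of it in parental cells. Under OTX015, P/R cells had 1.48 times the parental level (log2 difference 0.55, interval 0.43 to 0.68, limma adjusted p = 0.000108). Untreated, they had 1.24 times the parental level (0.30, interval 0.18 to 0.43, adjusted p = 0.0036). Both calls held in all 16 alternatives. The response in P/R cells minus that in parental cells was 0.25 ± 0.08 (SE). An antisense gene, MIF-AS1, overlaps MIF in GENCODE release 29 and was not analysed here. AP000350.4, a coding gene on the same strand, also overlaps MIF and averaged 0.0323 FPKM over the 8 libraries.

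**Figure D1:**
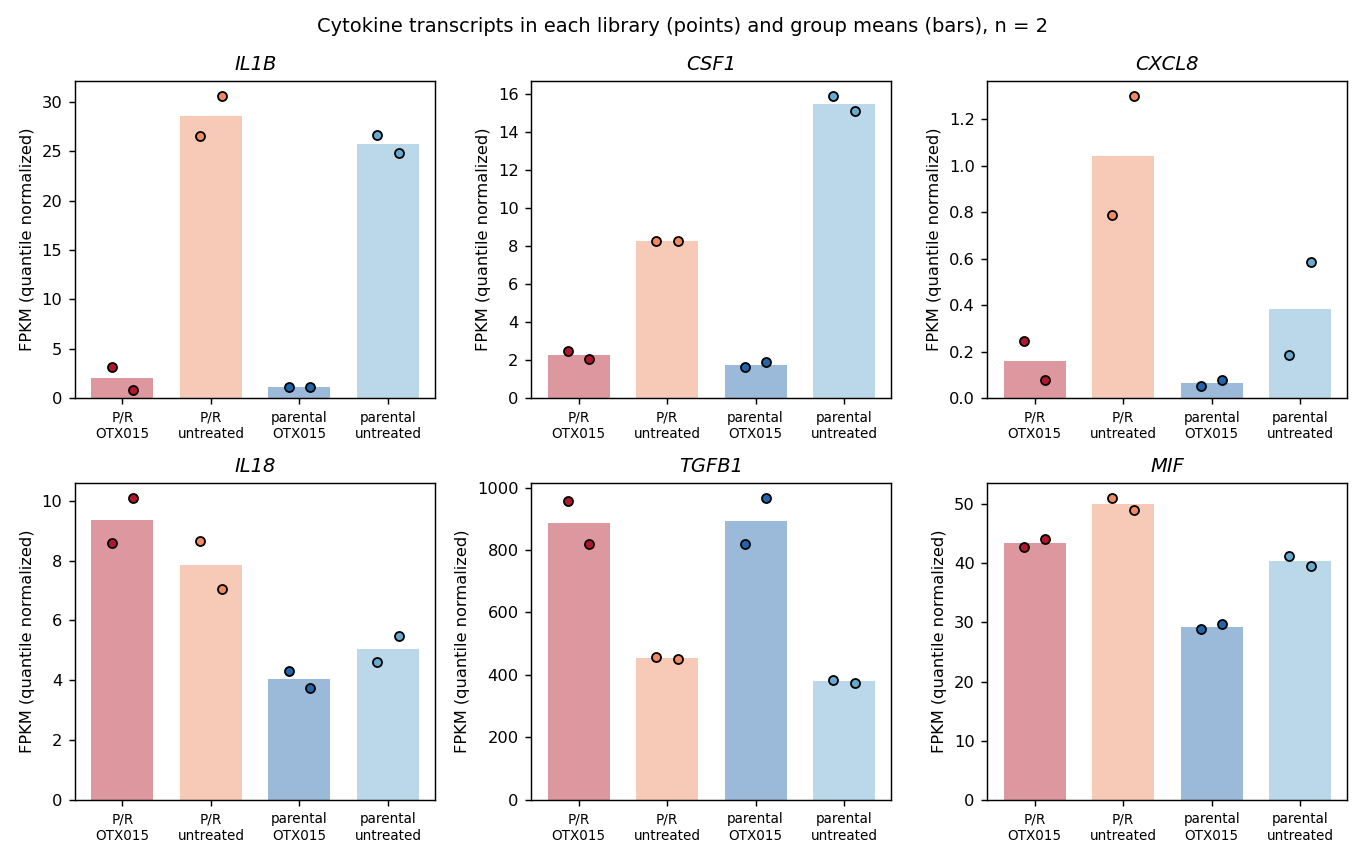
FPKM of the 6 cytokine genes in each library (points) and the mean of each group (bars, from 0), with n = 2 per group and a scale of its own for each gene. IL1B, CSF1 and CXCL8 are low in both treated groups, TGFB1 is high in both (818 to 967 FPKM), and IL18 and MIF are higher in P/R than in parental cells under the same treatment.

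Across the 6 members, treated and untreated libraries did not overlap in 5 of 6 cases in P/R cells and in 6 of 6 in parental cells, IL18 in P/R cells being the exception. Over all tested genes this held for 72.7% in P/R cells and 75.6% in parental cells, so the count is near the background and says little of cytokines. Between the lines, 2 of the 5 tested members passed under OTX015, where 24.4% of all tested genes passed (12.7% higher and 11.7% lower). Untreated, 3 of 5 passed, where 23.5% of all tested genes did (11.7% higher and 11.9% lower). The members were picked on these same FPKM, so these counts are no independent evidence. The order of the levels in FPKM, which accounts for transcript length, was TGFB1, MIF, IL1B, CSF1, IL18 and CXCL8 in both untreated groups. In untreated P/R cells CSF1 (8.28 and 8.29 FPKM) and IL18 (8.64 and 7.06 FPKM) overlapped. Under OTX015 the order became TGFB1, MIF, IL18, CSF1, IL1B and CXCL8 in both lines, and in P/R cells CSF1 and IL1B overlapped.

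**Figure D2:**
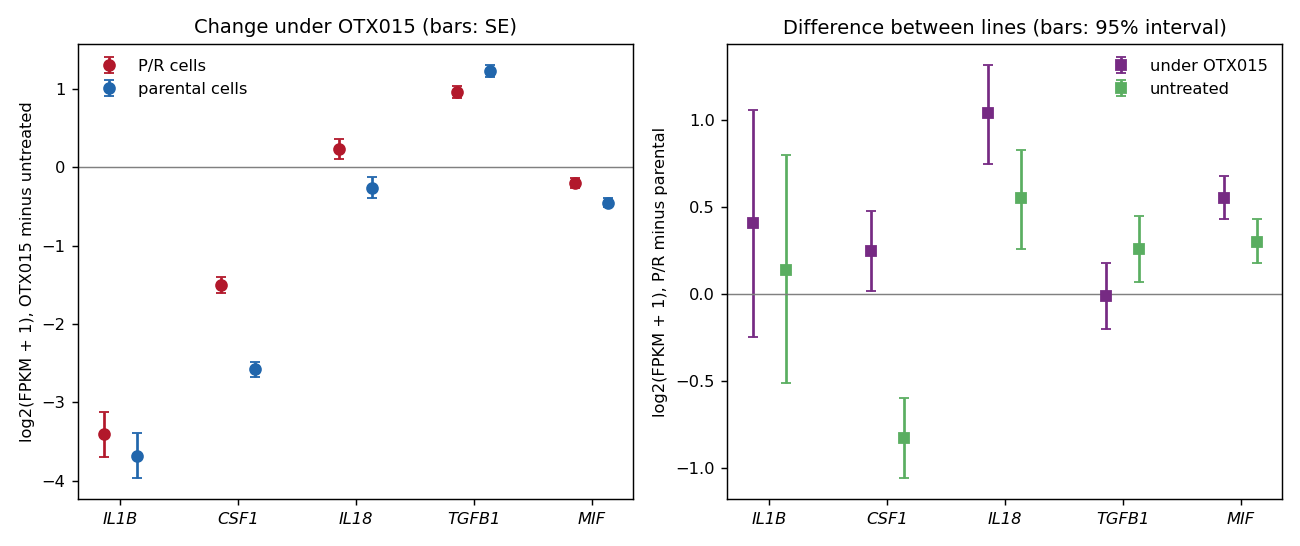
Differences of log2(FPKM + 1) for the 5 members that passed the filter. Left: OTX015 minus untreated in P/R cells (red) and parental cells (blue) with standard errors, where IL1B has the largest falls (-3.41 and -3.68) and CSF1 falls by less in P/R cells (-1.50) than in parental cells (-2.58). Right: P/R minus parental under OTX015 (purple) and untreated (green) with 95% intervals, where IL18 and MIF lie above 0 in both conditions and CSF1 lies at -0.83 untreated.

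The genes through which these cytokines are processed and sensed were read from 6 lists with 187 different genes, of which 70 passed the filter. The lists were chosen with earlier results of these data known, so their counts are given as a description. The receptor genes CSF1R, CXCR1, CXCR2 and IL1R1 were near 0. The chemokine-binding receptor ACKR1 was not, and it is described with the CXC chemokines. CSF1R, the CSF1 receptor, averaged 0.0405 FPKM in P/R cells under OTX015, 0.0735 FPKM in untreated P/R cells, 0.0292 FPKM in parental cells under OTX015 and 0.0705 FPKM in untreated parental cells. CXCR1 and CXCR2, receptors of CXCL8, did not exceed 0.0280 FPKM in any library, and IL1R1, an interleukin 1 receptor, did not exceed 0.0909 FPKM. CASP1, the caspase that cuts both interleukin precursors, read between 0 and 0.597 FPKM. By contrast GSDMD, the pore-forming protein of inflammasome-driven cell death, was abundant in all groups. It averaged 56.4 ± 2.11 FPKM in P/R cells under OTX015 and 43.9 ± 0.289 FPKM in untreated P/R cells (SD, n = 2). In parental cells GSDMD averaged 47.9 ± 0.223 FPKM under OTX015 and 40.4 ± 3.08 FPKM untreated. The TGF-β receptor genes were low but present, with TGFBR1 at 4.28 to 6.13 FPKM and TGFBR2 at 2.55 to 3.70 FPKM over the group means. IL18R1, an interleukin 18 receptor chain, passed the filter through untreated parental cells alone and averaged 0.214 ± 0.00887 FPKM in P/R cells under OTX015, 0.757 ± 0.0379 FPKM in untreated P/R cells, 0.289 ± 0.107 FPKM in parental cells under OTX015 and 1.42 ± 0.187 FPKM in untreated parental cells. CD74, the MIF receptor protein, averaged 8.51 ± 0.493 FPKM in P/R cells under OTX015 and 10.7 ± 0.77 FPKM in parental cells under OTX015. The lower CD74 level in P/R cells (limma adjusted p = 0.0426) was called in only 6 of 16 alternatives.

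In the list of interleukin 1 and 18 relatives, processing and signalling, 4 of 19 tested genes rose and 5 fell under OTX015 in P/R cells, and 4 rose and 9 fell in parental cells. That is 47.4% called in P/R cells, against 44.3% of all tested genes, and 68.4% in parental cells, against 50.4%. Of the 9, IL1RL1 and IL18R1 reached 1 FPKM in untreated parental libraries alone, so that the filter favoured their fall. The median log2 change was -0.04 in P/R cells, against 0.01 over all genes, and -0.07 in parental cells, against 0.02. IRAK1, a kinase that relays the receptor signal, fell to 41 ± 4.54 FPKM under OTX015, against 69.5 ± 0.67 FPKM untreated, in P/R cells and to 39.2 ± 1.19 FPKM, against 73.3 ± 0.507 FPKM, in parental cells (SD, n = 2). TOLLIP, which restrains that signal, rose by 1.10 in P/R cells and by 1.08 in parental cells on the log2 scale (limma adjusted p = 2.61e-05 and 1.91e-05). NLRP1, an inflammasome sensor, rose under OTX015 in both lines and was higher in P/R cells. It averaged 39.2 ± 4.01 FPKM in P/R cells under OTX015 and 24.5 ± 0.464 FPKM in untreated P/R cells, against 12.8 ± 0.995 FPKM in parental cells under OTX015 and 7.18 ± 0.0907 FPKM in untreated parental cells. The difference between the lines was 1.54 under OTX015 and 1.64 untreated (limma adjusted p = 3.51e-06 and 2.93e-06).

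Among colony-stimulating factors and receptors, 1 of 5 tested genes rose and 4 fell in each line, where 22.5% of all tested genes rose and 21.8% fell in P/R cells, and 25.7% rose and 24.7% fell in parental cells. CSF2RB, the shared receptor chain for interleukin 3 and GM-CSF, fell to 6.5 ± 0.562 FPKM under OTX015, against 16.7 ± 0.467 FPKM untreated, in P/R cells and to 8.56 FPKM, against 29.7 ± 1.67 FPKM, in parental cells. EPOR, the erythropoietin receptor, rose in both lines. KIT, the stem cell factor receptor, averaged 1.37 ± 0.0218 FPKM in P/R cells and 9.82 ± 0.0485 FPKM in parental cells under OTX015, a log2 difference of -2.19 (limma adjusted p = 1.69e-06).

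The CXC chemokines and receptors had 5 tested genes, of which 3 fell in P/R cells and 4 fell in parental cells, and 0 rose in either, against 21.8% of all tested genes lower in P/R cells and 24.7% in parental cells. CXCL2 and CXCL3, chemokines of the same family as CXCL8, fell by 1.06 and 0.95 in P/R cells and by 0.78 and 0.95 in parental cells on the log2 scale. ACKR1, the Duffy chemokine-binding receptor of red cells, fell to 9.15 ± 1.22 FPKM under OTX015, against 27.6 ± 1.28 FPKM untreated, in P/R cells and to 4.17 ± 0.373 FPKM, against 22.4 ± 1.05 FPKM, in parental cells. PF4, platelet factor 4, stood out at 43.6 ± 0.583 FPKM in P/R cells and 1.47 ± 0.339 FPKM in parental cells under OTX015 (limma adjusted p = 1.12e-07). Its close copy PF4V1 passed the filter through the P/R libraries alone, at 1.5 to 1.93 FPKM there, so that the filter fixed its direction between the lines, and reads may have been shared between the copies. The 8 megakaryocyte markers, PF4 among them, summed to 704 to 781 FPKM in P/R cells under OTX015, 875 to 882 FPKM in untreated P/R cells, 522 to 538 FPKM in parental cells under OTX015 and 624 to 652 FPKM in untreated parental cells. Their part in the differences between the lines was not tested.

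**Figure D3:**
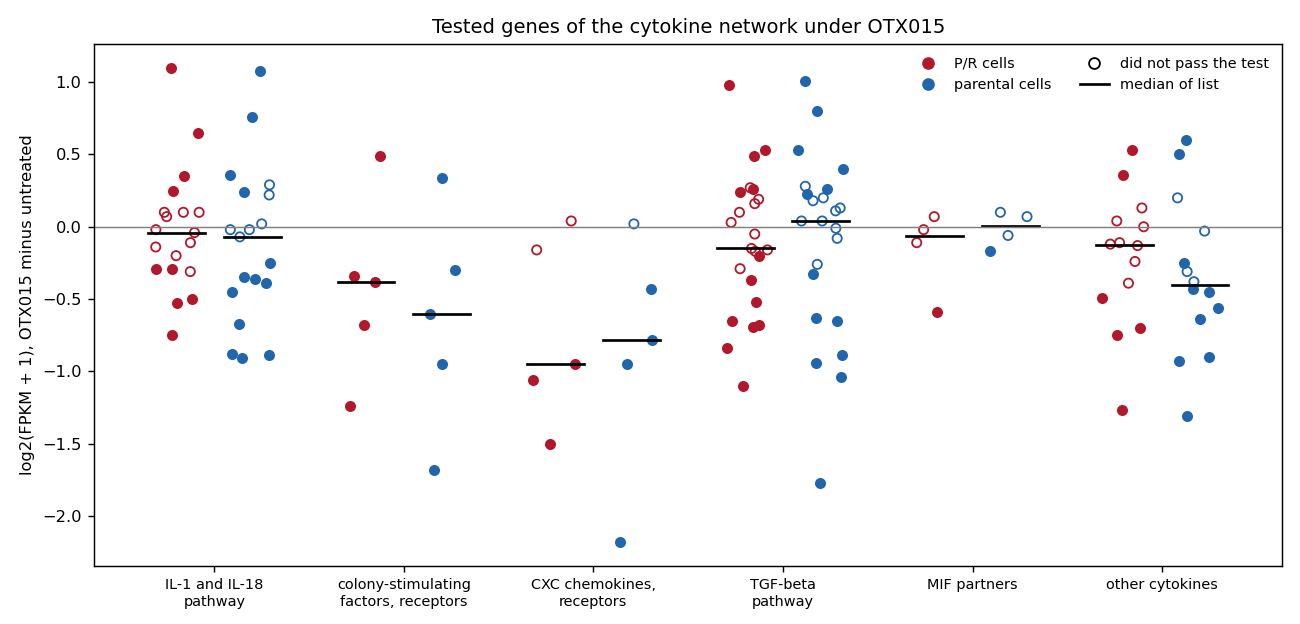
Change of each tested network gene under OTX015, as OTX015 minus untreated in log2(FPKM + 1), by list, in P/R cells (red, left) and parental cells (blue, right). Filled points passed limma at an adjusted p under 0.05, open points did not, and bars mark list medians, the lowest of which are those of the CXC chemokines and receptors (-0.95 in P/R cells and -0.78 in parental cells).

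The TGF-β list moved in both directions under OTX015. Of its 23 tested genes, 5 rose and 8 fell in P/R cells, or 56.5% called, against 44.3% of all tested genes. In parental cells 6 rose and 7 fell, or 56.5%, against 50.4%. LRRC32, which encodes GARP, a surface anchor of latent TGF-β on platelets and regulatory T cells, fell to 15.4 ± 0.931 FPKM under OTX015, against 34.1 ± 1.61 FPKM untreated, in P/R cells and to 4.98 ± 0.171 FPKM, against 19.3 ± 0.494 FPKM, in parental cells. The latent-TGF-β binding protein genes LTBP1 and LTBP3, NRROS, another anchor, and THBS1, the gene of the platelet protein thrombospondin 1, fell in both lines. LTBP4, of the same binding protein family, rose in P/R cells (0.26, limma adjusted p = 0.0226) and did not pass in parental cells (0.20, adjusted p = 0.0596). ITGAV, an integrin chain that takes part in activating latent TGF-β, rose by 0.49 in P/R cells and by 0.53 in parental cells (limma adjusted p = 0.0182 and 0.0115). BAMBI, a decoy receptor of the family, rose by 0.98 in P/R cells and by 1.01 in parental cells, and SKI, a repressor of SMAD signalling, rose by 0.53 and 0.80 in the same order. TGFB2 and TGFB3, the genes of the other two ligands, did not exceed 0.499 FPKM in any library. Between the lines, LRRC32 was higher in P/R cells by 1.45 under OTX015 and by 0.79 untreated, and THBS1 by 1.31 and 1.52 (limma adjusted p at most 9.16e-05).

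Among 14 tested genes of other cytokines, 2 rose and 4 fell in P/R cells, and 2 rose and 8 fell in parental cells. That is 42.9% called in P/R cells, below the 44.3% of all tested genes, and 71.4% in parental cells, against 50.4%. LTB, lymphotoxin β, fell to 3.08 ± 0.0963 FPKM under OTX015, against 8.86 ± 0.221 FPKM untreated, in P/R cells and to 1.47 ± 0.329 FPKM, against 5.1 ± 0.11 FPKM, in parental cells. TNF, tumour necrosis factor, read 19.1 and 20.3 FPKM in P/R cells under OTX015, against 14.6 and 15.8 FPKM untreated. In parental cells it read 6.14 and 6.78 FPKM under OTX015, against 8.38 and 7.38 FPKM untreated. The rise in P/R cells passed (log2 0.36, limma adjusted p = 0.0111) except without P/R OTX015 replicate 2 (0.0639) or without P/R untreated replicate 1 (0.0811). The fall in parental cells (-0.25, adjusted p = 0.0439) passed in only 5 of 16 alternatives, and the difference in response (0.61) did not pass (adjusted p = 0.172). TNF was higher in P/R cells by 1.47 under OTX015 and by 0.87 untreated (adjusted p = 5.95e-06 and 0.000151).

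Of the 4 tested MIF partners, 0 rose and 1 fell in each line. That is 25% called in each, against 44.3% of all tested genes in P/R cells and 50.4% in parental cells. CD44, a co-receptor, fell in P/R cells by 0.59 (limma adjusted p = 0.00274), and COPS5, an intracellular partner, fell in parental cells by 0.17 (adjusted p = 0.0145). The COPS5 call was lost without parental OTX015 replicate 2 (0.0873) or without parental untreated replicate 2 (0.0767). DDT, the gene of a MIF homologue, was higher in P/R cells by 0.24 under OTX015 and by 0.33 untreated (adjusted p = 0.00572 and 0.00121). CD44 was lower in P/R cells under OTX015 by a log2 difference of -0.64 (adjusted p = 0.00292) and did not pass untreated (-0.12, adjusted p = 0.514). Of the 4 partners, 1 was higher and 2 were lower in P/R cells under OTX015, and 1 was higher untreated. That is 75% called under OTX015, against 24.4% of all tested genes, and 25% untreated, against 23.5%. The 2 lower ones were CD44 and CD74, and the CD74 call held in only 6 of 16 alternatives.

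Over all lists together, 12 of 70 tested genes rose and 25 fell in P/R cells, or 52.9% called, against 44.3% of all tested genes (22.5% higher and 21.8% lower). In parental cells 13 rose and 33 fell, or 65.7%, against 50.4% (25.7% higher and 24.7% lower). Between the lines, 21 were higher and 9 lower in P/R cells under OTX015, and 20 were higher and 9 lower untreated. That is 42.9% called under OTX015, against 24.4% of all tested genes, and 41.4% untreated, against 23.5%. Since the lists were chosen with earlier results known, these shares are no independent evidence about cytokine genes. These counts include low genes that passed the filter in some groups alone: TNFSF12 and CCL25 in untreated libraries, CCL23 in parental ones and IL23A in treated parental ones, beside PF4V1, IL1RL1 and IL18R1. Untreated, that total of 29 was 19 without P/R untreated replicate 1 and 19 without P/R untreated replicate 2. In the difference in response, limma called 0 of the 70, of which 13 had an unadjusted p under 0.05. Over all tested genes, 1080 of 11255 had an unadjusted limma p under 0.05 in this comparison.

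**Figure D4:**
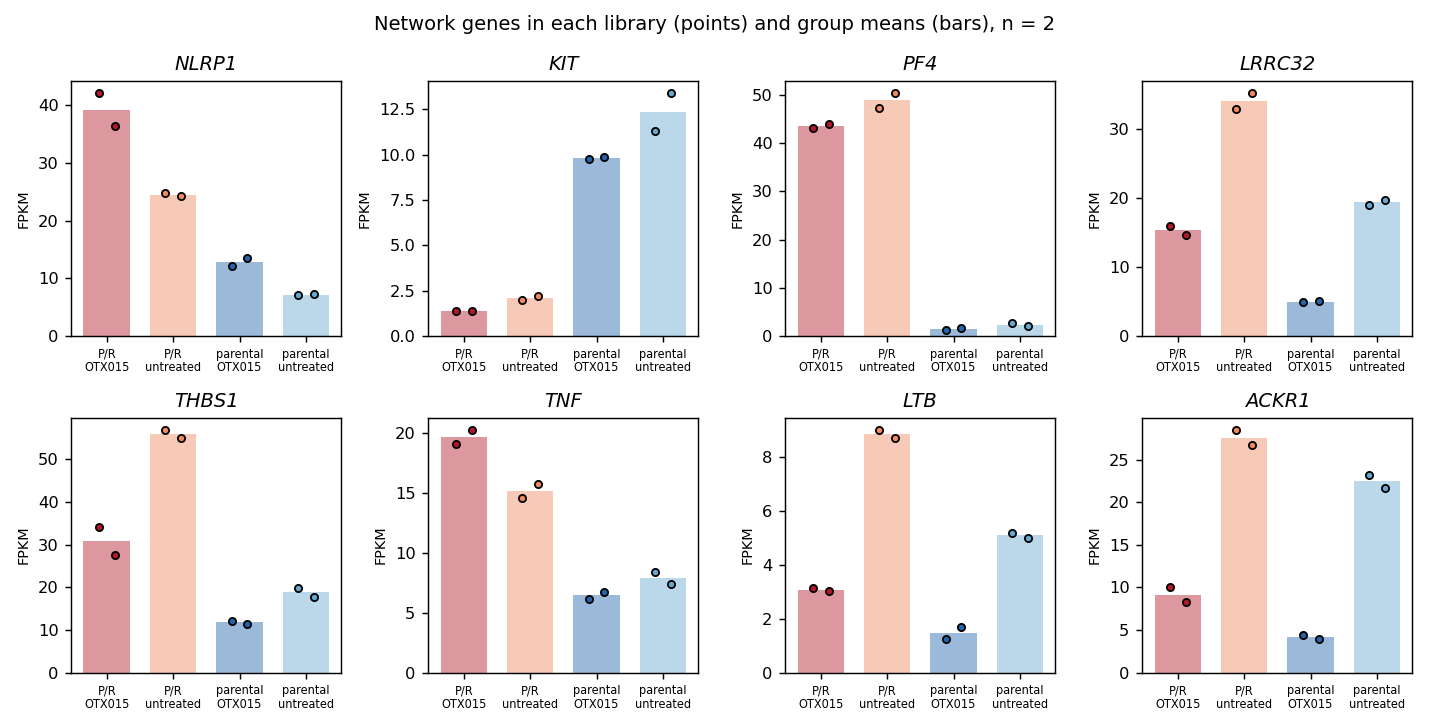
FPKM of 8 network genes in each library (points) with group means (bars, from 0), n = 2 per group. NLRP1, PF4, LRRC32, THBS1 and TNF are higher in P/R than in parental cells under the same treatment and KIT is lower, while ACKR1 and LTB are lower in both treated groups.

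Genes with the pattern most like each member were sought by Pearson's correlation of log2(FPKM + 1) over the 8 libraries, among 8297 tested genes with a mean of at least 5 FPKM. The libraries fall into 4 groups, so high values of r are common and are given as a description. For IL1B these were EPB42, SDF2L1, SLC29A2, IRAK1 and ABT1 (r = 0.9956 to 0.9938), of which IRAK1 is on the interleukin 1 list. For CSF1 they were SLC39A3, NOL9, DTYMK, ADRBK1 and MACF1 (r = 0.9944 to 0.9929). MLXIP and ADRA2A came first for TGFB1 (r = 0.9967 and 0.9966), TBXA2R and CTSZ for MIF (0.9936 and 0.9933), PTGS1 and RABGGTB for IL18 (0.9752 and 0.9739) and MCCC2 and PRELID1 for CXCL8 (0.9728 and 0.9652). The size of the change differed: EPB42 averaged 15.3 FPKM under OTX015 and 46.8 FPKM untreated in P/R cells, a smaller fall than that of IL1B. For other neighbours the change was small. SLC39A3 averaged 103 FPKM under OTX015 and 120 FPKM untreated in P/R cells, and 101 and 133 FPKM in parental cells. MCCC2 averaged 27.2 FPKM under OTX015 and 29 FPKM untreated in P/R cells, and 27 and 27.4 FPKM in parental cells.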

How the data were processed

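The deposited table gives 19718 coding genes in 8 libraries, with Ensembl identifiers and symbols. Its unit is not named and was taken to be FPKM. The deposited FPKM values are quantile normalized, as each library sums to 678133 and, at ranks averaging at least 1 FPKM, sorted values differ between libraries by no more than 0.136%. TopHat2 2.0, Cufflinks 2.0 and hg19 are named, per the submitters' processing notes; the sources used here give no settings, annotation, strand or depth.

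Genes with at least 1 FPKM in at least 2 libraries (11255) were fitted as log2(FPKM + 1) with 4 group means in limma 3.58.1 (R 4.3.3, variance trend, 4 residual and 5.23 prior degrees of freedom). P-values are two-sided and adjusted by Benjamini-Hochberg over these genes, with a threshold of 0.05. The members and lists were chosen with earlier results of these data known. A test of the members' difference in response was planned, but that difference comes from the responses known at the choice, so it is described only. Network genes are named by size: per list and comparison, the 3 largest called changes whose replicates did not overlap, where a group averaged 5 FPKM or more. Other network genes appear in counts or were named after their values were seen. Receptors are named whatever their value, and pattern neighbours by r. IL1RAP was not analysed here. 1 gene of the network lists is counted but not reported by name. Other settings tried were a pseudocount of 0.1 or 5, a stricter filter (5 FPKM on average) or none, no trend, median centring, only the groups compared (not for the difference in response), a replicate block and each library left out. In simulated data of 11255 genes for the difference in response, limma called 92% of true log2 changes of size 1 and 36% of those of size 0.5. Only 100 genes of each size were changed there, all averaging above about 5 FPKM, and no other gene differed between groups. These shares need not hold in the real data, where limma called 9 genes in this comparison.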

Additional observations from a re-analysis of the deposited data

Results flagged for a closer look

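CSF1 was marked because limma gave its difference in OTX015 response an adjusted p of 0.0478: the fall was smaller in P/R cells than in parental cells by 1.08 on the log2(FPKM + 1) scale. The responses were known when the gene was picked, so this p is no independent evidence. P/R cells had 2.29 FPKM under OTX015 and 8.28 FPKM untreated, and parental cells had 1.77 FPKM under OTX015 and 15.5 FPKM untreated, with 2 libraries in each group. The adjusted p was above 0.05 (0.0735 to 0.211) when any 1 of the 8 libraries was left out.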

How the results depend on the processing

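The count of members whose treated and untreated libraries did not overlap, 11 of 12 over both lines, was 11 to 12 without single libraries. The count of members called between the lines was 2 to 4 untreated and 2 to 3 under OTX015 without single libraries. For the difference in response, which is no independent test for members, the 1 member past the threshold, CSF1, became 0 with a pseudocount of 0.1, without the filter, without the variance trend, with the replicate block and without any single library (0 to 0). It stayed past the threshold with a pseudocount of 5, a mean of at least 5 FPKM and median centring. The 9 genes called there were 4 with a pseudocount of 0.1, 29 with a pseudocount of 5, 26 without the filter, 3 without the trend, 2 with the replicate block and 2 to 8 without single libraries. The other counts of genes called without single libraries were 1614 to 2688 between untreated lines (2647 with all, 1614 without P/R untreated replicate 1 and 1689 without P/R untreated replicate 2) and 1763 to 2633 between treated lines (2747 with all, 1763 without parental OTX015 replicate 1). Network genes called between untreated lines were 16 at a mean of at least 5 FPKM, where 42 were tested, and 19 to 28 without single libraries. At the filter of a mean of at least 5 FPKM, 2097 of all 8297 genes tested were called between untreated lines. A left-out library leaves 1 sample in its group, which is assumed to vary like the others.

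Reversed signs came from single libraries: for TGFB1 between treated lines, 0.11 without parental OTX015 replicate 2 and 0.11 without P/R OTX015 replicate 2 (range over left-out libraries -0.13 to 0.11). For IL1B, without P/R OTX015 replicate 1, the values were -0.19 between treated lines (range -0.19 to 1.00) and -0.33 for the difference in response (range -0.33 to 0.85). TGFB1 between untreated lines passed in 6 of 16 alternatives (adjusted p from 0.00186 to 0.27). Of 60 results for named network genes, 50 kept their direction and call in every alternative. Replicate numbers did not pair the libraries (correlations of deviations from -0.12 to 0.104); with the numbers crossed between the treated groups, a choice made after seeing the data, 2878 genes were called between treated lines, against 2747 with no block.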
